A study of Mus musculus with 47 samples.

Results

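The Wnt ligands Wnt5a, Wnt5b and Wnt7b and the Wnt receptors Ror1 and Ror2 were followed in cultured cells and tumors of a mouse melanoma line. They were 5 of the 56748 genes in the count table, and they were chosen by name with their fold changes in these data already known, so that their differences between groups are given as a description without a test. The data were bulk RNA-seq of B78-D14 cells, an amelanotic mouse melanoma line derived from B16, in which a mitochondrial base editor had placed truncating mutations in Mt-Nd5, a gene of mitochondrial complex I. The cultures were m.11,944 60% cells and control cells, with 4 cultures each, where 60% is the heteroplasmy, the share of mitochondrial genomes that carry the edit. The tumors were grown under the skin of immunocompetent C57BL/6 mice from control cells (4 tumors), m.12,436 40% cells (7 tumors) and m.12,436 60% cells (7 tumors). All groups share the B78-D14 background, the edited cells are sorted populations, and the mutation at position 11,944 was read only in cultures and that at 12,436 only in tumors. The m.12,436 60% cells, the m.11,944 tumors and the other control tumors of the series were not analysed here.

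Wnt proteins are secreted, lipid-modified ligands that bind Frizzled receptors. In the canonical branch, Frizzled and the coreceptors Lrp5 and Lrp6 stabilize beta-catenin, whereas in the noncanonical branches a ligand such as Wnt5a signals through Frizzled together with Ror1, Ror2 or Ryk to the planar polarity and calcium pathways. In melanoma, Wnt5a and Ror2 are known for their link with motility and invasion, and Wnt7b is best known as a ligand of the canonical branch.

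On GRCm39, the build used by the authors, Wnt5a (ENSMUSG00000021994) lies on the plus strand at chr14:28226495-28249405, Wnt5b (ENSMUSG00000030170) on the minus strand at chr6:119409323-119521897 and Wnt7b (ENSMUSG00000022382) on the minus strand at chr15:85419638-85466674. Ror1 (ENSMUSG00000035305) lies on the plus strand at chr4:99952988-100301990 and Ror2 (ENSMUSG00000021464) on the minus strand at chr13:53263348-53440247. The 250 bases before the start of the canonical transcript are shown for the ligand Wnt5a, which was lower in 60% cells and 60% tumors than in their controls, and for the receptor Ror1, and not for every member. Capitals mark a match to one of the motifs named after the sequences.
Wnt5a promoter, chr14:28226245-28226494, plus strand: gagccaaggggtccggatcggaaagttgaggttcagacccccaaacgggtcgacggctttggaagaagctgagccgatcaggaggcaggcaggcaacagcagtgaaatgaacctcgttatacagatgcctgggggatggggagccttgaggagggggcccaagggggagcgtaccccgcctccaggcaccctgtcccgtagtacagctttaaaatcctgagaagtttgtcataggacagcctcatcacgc
Ror1 promoter, chr4:99952738-99952987, plus strand: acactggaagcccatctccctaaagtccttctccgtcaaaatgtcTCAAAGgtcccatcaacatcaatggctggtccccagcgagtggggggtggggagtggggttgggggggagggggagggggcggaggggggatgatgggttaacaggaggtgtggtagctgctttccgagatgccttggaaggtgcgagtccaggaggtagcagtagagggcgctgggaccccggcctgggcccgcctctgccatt
The windows before Wnt5b and Ror2 held 58 and 87 bases of exons of other transcripts of the same genes. Searched on both strands were CTTTGA (TCF and LEF), TGANTCA (AP-1), CACGTG (E-box), ACAATG (SOX) and TGACGTCA (CRE), none of which contains another. The Ror1 window held 1 CTTTGA match, on the opposite strand and therefore read as TCAAAG, a motif found in 14.1% of the windows of the same length before 21770 protein-coding transcripts, and the Wnt5b and Ror2 windows held 1 TGANTCA match each, found in 6.17% of windows. The window of Wnt5a held none of the 5 motifs. The GC content was 58.4% for Wnt5a, 62.4% for Ror1, 75.2% for Wnt5b and 73.2% for Ror2, against a median of 53.2% over all windows. A match of letters describes the window and does not show that a factor binds there.

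The libraries held between 16475735 and 36173502 counts on genes. Levels are given as counts-per-million values (CPM) after TMM scaling, which corrects library size for the makeup of each library. Markers were read as sums of CPM over hand-made lists. Leukocyte markers summed to at most 0.312 CPM in cultures and endothelial markers to at most 0.530 CPM, so that cultures held next to no RNA of these cells, with Cd3e, Cd8a, Itgam and Ncr1 without a count in either group. Of 7 melanocyte lineage markers only 1, Mitf, exceeded 1 CPM on average in either culture group, and Tyr had no count there, in cells labelled amelanotic melanoma. Fibroblast markers summed to 661–2601 CPM in cultures and 7568–13801 CPM in tumors. Most of the culture sums was Col3a1, at a mean of 1479 CPM in control cells and 1976 CPM in edited cells. Of the 8 listed fibroblast genes, 5 exceeded 1 CPM on average in each culture group. Dcn and Lum were at most 0.468 and 0.310 CPM in any culture, and Fap had no count there. In cultures, numbers 1 and 2 differed from 3 and 4 in both groups: with the group as a term, 8827 of 12930 genes (68.3%) were called between these pairs of numbers by edgeR's quasi-likelihood test at an adjusted p under 0.1.

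**Figure D1:**
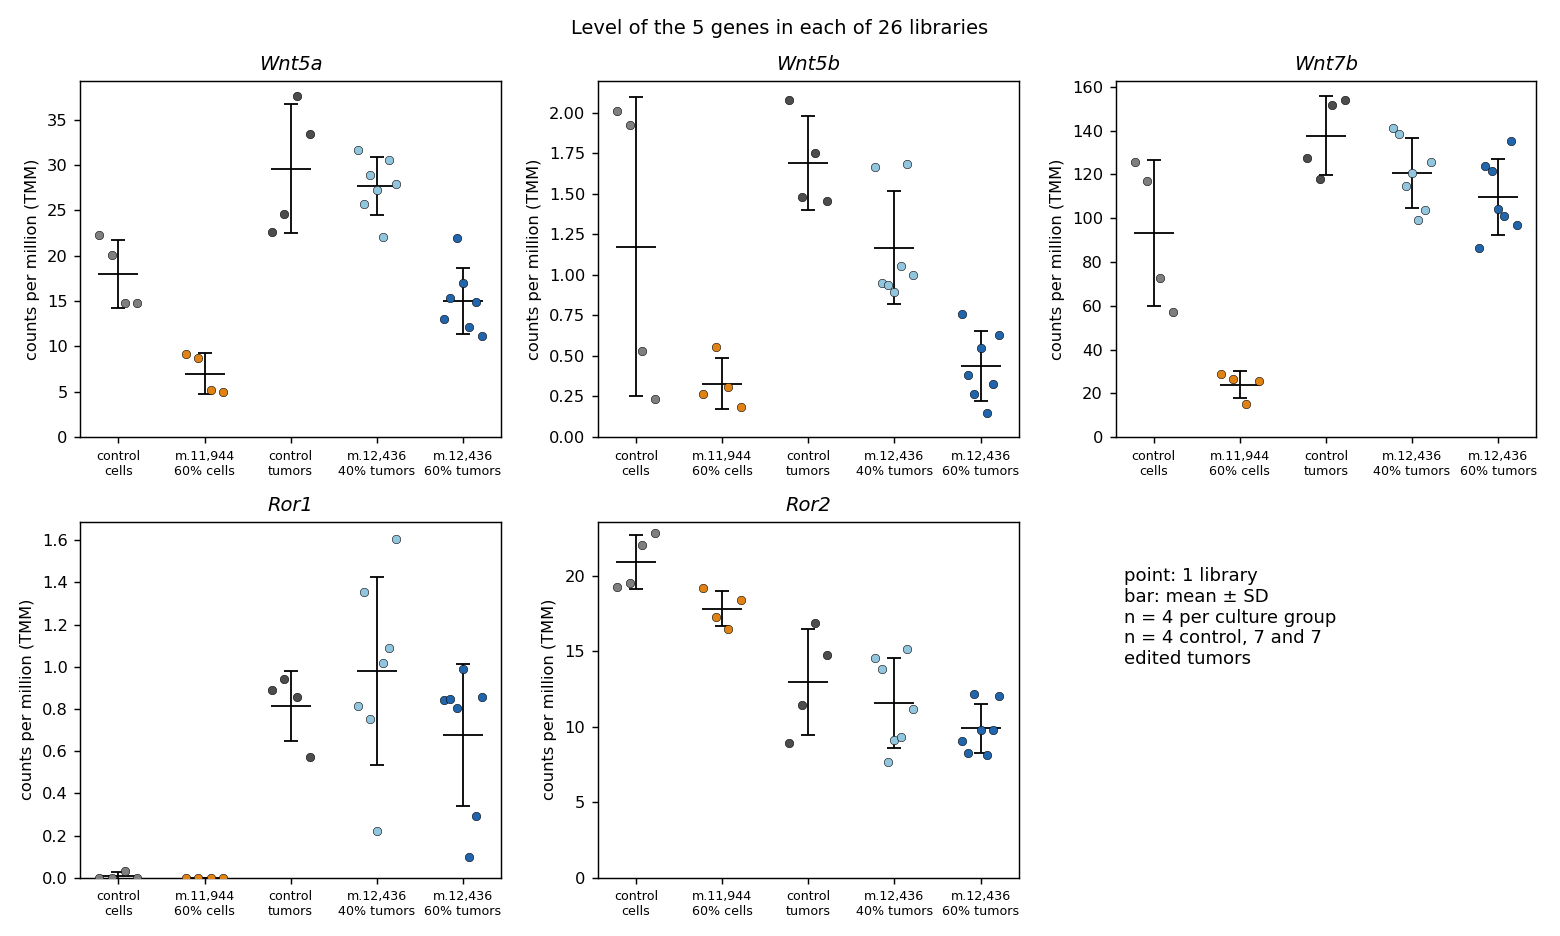
CPM of the 5 genes (y axis, linear and starting at 0) in each of the 26 libraries, by group (x axis). Points are libraries, and bars are the mean ± SD of 4 cultures, 4 control tumors or 7 edited tumors. Wnt5a and Wnt5b were lowest in m.12,436 60% tumors among tumors, Wnt7b was lowest in m.11,944 60% cells, and Ror1 stood at 0 to 0.0331 CPM in cultures.

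Wnt5a, the ligand most often used to study noncanonical signaling, was lower in m.11,944 60% cells than in control cells and lower in m.12,436 60% tumors than in both other tumor groups. In control cells it was at 22.3, 20.03, 14.8 and 14.8 CPM in cultures 1 to 4, and in m.11,944 60% cells at 9.13, 8.73, 5.21 and 4.96 CPM. Every edited culture was below every control culture, and in both groups cultures 1 and 2 were above cultures 3 and 4. The means were 7.01 ± 2.23 and 18.0 ± 3.78 CPM (SD, n = 4 each), a log2 fold change of −1.33 (SE 0.26). Within cultures 1 and 2 alone it was −1.21 (SE 0.11) and within 3 and 4 alone −1.52 (SE 0.19).

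In control tumors, Wnt5a was at 22.7, 24.6, 37.6 and 33.5 CPM in tumors 001 to 004. In m.12,436 40% tumors the lowest, median and highest values were 22.1, 27.9 and 31.7 CPM, and in m.12,436 60% tumors 11.1, 14.9 and 21.9 CPM. All 60% tumors were below all tumors of both other groups, although the highest 60% tumor and the lowest 40% tumor were nearly level, and the 40% and control tumors overlapped over most of their range. The means were 29.6 ± 7.14 (n = 4), 27.7 ± 3.18 (n = 7) and 15.1 ± 3.64 CPM (n = 7) in control, 40% and 60% tumors. The log2 fold change was −0.98 (SE 0.16) for 60% against control tumors, −0.89 (SE 0.14) for 60% against 40% and −0.09 (SE 0.16) for 40% against control. The 60% comparisons share the same 60% tumors and the control comparisons the same control tumors. In bulk tumors, fewer cells that make a transcript and less of it per cell cannot be told apart.

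Wnt5b, the close paralog of Wnt5a, was scarce in every group, with 3 to 57 counts per library. In control cells it was at 2.01, 1.92, 0.530 and 0.233 CPM in cultures 1 to 4, and in m.11,944 60% cells at 0.266, 0.553, 0.306 and 0.187 CPM. Only control cultures 1 and 2 stood above the rest, and the groups overlapped, with a log2 fold change of −1.80 (SE 0.70). Within cultures 1 and 2 it was −2.20 (SE 0.35), and cultures 3 and 4 alone held too few counts for the fit. Across tumors, the separation was wider than for Wnt5a. Control tumors were at 2.08, 1.48, 1.75 and 1.45 CPM, the lowest, median and highest 40% tumors at 0.895, 0.997 and 1.68 CPM, and those at 60% at 0.147, 0.382 and 0.760 CPM. No 60% tumor reached the lowest tumor of either other group, and 40% and control tumors overlapped. The means were 1.69 ± 0.290 (n = 4), 1.17 ± 0.350 (n = 7) and 0.437 ± 0.216 CPM (n = 7). The log2 fold change was −1.93 (SE 0.29) for 60% against control, −1.41 (SE 0.27) for 60% against 40% and −0.52 (SE 0.28) for 40% against control. Exons of Wnt5b overlap those of Fbxl14 on the opposite strand, which was at 60.8–106 CPM across all libraries, and whether strand was used in counting is not given in the sources used here, in the absence of which reads of the overlap cannot be told apart.

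Wnt7b, a ligand mostly studied for canonical signaling, was the most abundant of the 3 ligands. It was at 126, 117, 72.7 and 57.4 CPM in control cultures 1 to 4 and at 28.9, 26.3, 14.9 and 25.7 CPM in m.11,944 60% cultures. The lowest control culture was still above the highest edited culture. The means were 93.2 ± 33.4 and 24.0 ± 6.20 CPM (n = 4 each), and the log2 fold change was −1.93 (SE 0.31), with −2.10 (SE 0.08) in cultures 1 and 2 and −1.65 (SE 0.26) in cultures 3 and 4. In tumors its level differed less. Control tumors were at 128, 118, 152 and 154 CPM, the lowest, median and highest 40% tumors at 99.3, 121 and 141 CPM, and those at 60% at 86.3, 104 and 135 CPM. All 3 tumor groups overlapped, with log2 fold changes of −0.33 (SE 0.12) for 60% against control, −0.14 (SE 0.10) for 60% against 40% and −0.19 (SE 0.12) for 40% against control. The cell and tumor comparisons differ in both mutation and setting, and the difference between them was not tested.

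**Figure D2:**
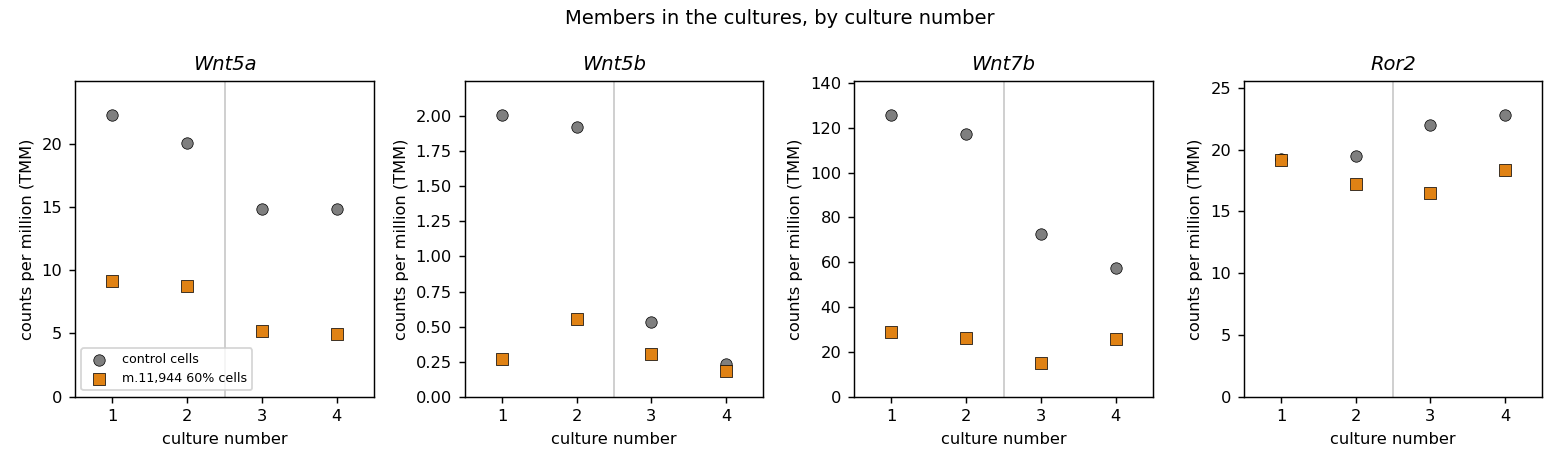
CPM (y axis, from 0) of the 3 ligands and Ror2 against culture number (x axis), for m.11,944 60% cells (squares) and control cells (circles), a vertical line parting culture 2 from 3. Wnt5a and Wnt7b of edited cells were below those of the control culture of the same number in all 4 cultures, while Wnt5b was well apart in cultures 1 and 2 and nearly level in culture 4.

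Ror1, a receptor tyrosine kinase-like protein that binds Wnt5a, had no count in 7 of the 8 cultures and 1 count in control culture 3. A count of 0 allows up to 3 counts, or 0.0935–0.133 CPM in these cultures, for counting error only, and too few counts were left for a comparison between cells. In tumors it had 2 to 50 counts. Control tumors were at 0.890, 0.944, 0.859 and 0.573 CPM, the lowest, median and highest 40% tumors at 0.224, 1.02 and 1.61 CPM, and those at 60% at 0.0979, 0.844 and 0.988 CPM. The 3 groups overlapped, and the log2 fold change was −0.27 (SE 0.42) for 60% against control, −0.55 (SE 0.36) for 60% against 40% and 0.28 (SE 0.42) for 40% against control. Tumors also held leukocyte and endothelial markers, which were near 0 in cultures, and more of the fibroblast markers than cultures did, and the part of such cells in the Ror1 level was not tested.

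Ror2, the related receptor through which Wnt5a drives polarity signaling, was read well in both cells and tumors. It was at 19.3, 19.5, 22.03 and 22.8 CPM in control cultures and at 19.1, 17.2, 16.5 and 18.4 CPM in m.11,944 60% cultures. The groups did not overlap, but the highest edited culture was nearly level with the lowest control culture, and the log2 fold change was −0.20 (SE 0.12). In control tumors it was at 8.94, 11.4, 16.8 and 14.7 CPM, while the lowest, median and highest values were 7.69, 11.2 and 15.2 CPM in 40% tumors and 8.12, 9.77 and 12.1 CPM in 60% tumors. All tumor groups overlapped, with log2 fold changes of −0.40 (SE 0.19) for 60% against control, −0.23 (SE 0.17) for 60% against 40% and −0.17 (SE 0.19) for 40% against control. Of the 5 genes, Ror2 was the only one with a higher mean in control cells than in control tumors, at 20.9 ± 1.78 (n = 4) against 13.0 ± 3.50 CPM (n = 4), a difference between a pure culture and a mixed tissue.

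Set in order of their means, the 5 groups ran for Wnt5a from control tumors through 40% tumors, control cells and 60% tumors to m.11,944 60% cells, and only the last of these neighbors did not overlap in range. For Wnt5b the order was control tumors, control cells, 40% tumors, 60% tumors and last m.11,944 60% cells, and a gap in range lay only between 40% and 60% tumors. For Wnt7b the 3 tumor groups stood above control cells with overlapping ranges, and m.11,944 60% cells stood apart below them.

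Calls of the fit across all genes are given as a description, since these contrasts were used in choosing the genes. In cells, 5 of 12930 genes were called by edgeR at an adjusted p under 0.1 (0.0387%), 532 genes had an unadjusted p under 0.05, and none of the 4 tested members was called. Limma-voom also called 5 genes and DESeq2 84, and edgeR called 0 genes without any 1 of the 8 cultures. Groups did not overlap for 456 genes (3.53%), including Wnt5a, Wnt7b and Ror2. With the culture number as a block, which removes the difference between culture numbers, 919 genes were called (7.11%), and Wnt5a, Wnt5b and Wnt7b were among them, with log2 fold changes of −1.36 (SE 0.11), −1.65 (SE 0.38) and −1.90 (SE 0.17), while Ror2 was not, at −0.20 (SE 0.10). In 60% against control tumors, 374 of 16213 genes were called (2.31%) and 678 did not overlap (4.18%), and Wnt5a and Wnt5b met both. In 60% against 40% tumors, 293 genes were called (1.81%) and 105 did not overlap (0.648%), and the same pair again met both. In 40% against control tumors edgeR and limma-voom called 0 genes (0%), DESeq2 called 5, 825 genes had an unadjusted p under 0.05 in edgeR and 77 did not overlap (0.475%), with none of the 5 genes among those called by edgeR or apart. The calls of Wnt5a and Wnt5b held with each of the 11 tumors of the control comparison and each of the 14 of the other left out in turn, with a log2 fold change from −1.09 to −0.83 and from −2.10 to −1.79 against control, and from −1.003 to −0.82 and from −1.58 to −1.28 against 40% tumors.

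**Figure D3:**
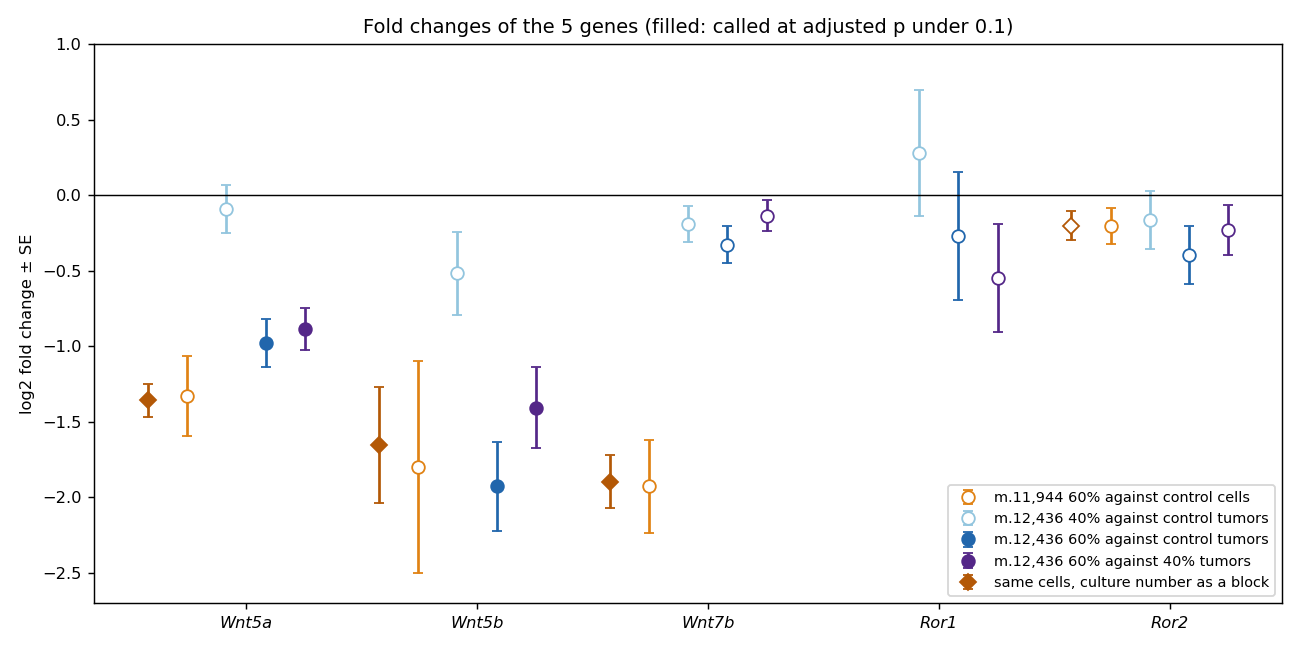
Log2 fold change ± SE (y axis) of each gene (x axis) in the 4 comparisons, with the cell comparison also shown with the culture number as a block. Filled symbols were called at an adjusted p under 0.1; Ror1 had too few counts in cells. The Wnt5a and Wnt5b symbols for 60% tumors are filled and lie between −0.89 and −1.93, whereas those for 40% against control tumors are open, at −0.09 and −0.52.

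Among all 19 Wnt ligands, Wnt7b and then Wnt5a were the most abundant per kilobase of exon in each of the 5 groups. Per kilobase, Wnt7b was at 18.2 ± 6.50 CPM in control cells and 26.9 ± 3.48 CPM in control tumors, and Wnt5a at 2.24 ± 0.470 and 3.68 ± 0.888 CPM (SD, n = 4 each). The next ligand in tumors was Wnt9a, at 1.39 ± 0.101 CPM per kilobase in control tumors. Wnt5b ranked 4 in control cells and 5 in m.11,944 60% cells, and 6 in control and 40% tumors but 9 in 60% tumors. Levels per kilobase use the exon length of all transcripts of a gene joined. Of the 16 other ligands, 2 in cells and 6 in tumors had enough counts for a test, and none of them was called in any comparison by edgeR, with or without the block in cells. Their median log2 fold change was −0.09 in 60% against control tumors, 0.18 in 60% against 40% tumors and −0.31 in 40% against control tumors, where 5 of the 6 were lower, beside medians of −0.00, −0.00 and 0.00 over all genes.

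**Figure D4:**
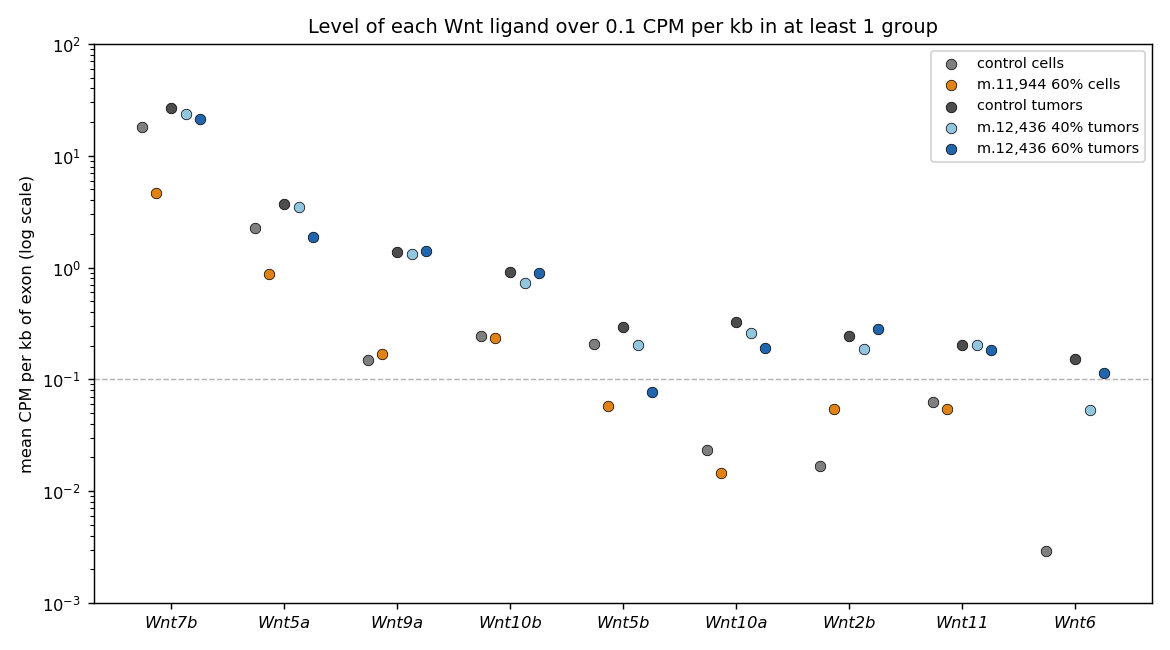
Mean CPM per kilobase of exon (y axis, log scale) of the 9 Wnt ligands (x axis) over 0.1 CPM per kilobase (dashed line) in at least 1 of the 5 groups, 1 point per group; Wnt6 in m.11,944 60% cells was at 0 and is not drawn. Wnt7b and Wnt5a lead in all groups, and Wnt5b falls below the line in 60% tumors and m.11,944 60% cells.

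The pathway around the members was read over 107 other genes of Wnt signaling, in lists compiled by hand with results of these data known. In m.12,436 60% against control tumors, 1 of the 79 tested genes was called by edgeR, downward, and in 60% against 40% tumors 3 were, 1 upward and 2 downward. These shares, 1.27% and 3.80%, stand beside 2.31% and 1.81% over all genes. Notum, a secreted enzyme that removes the lipid of Wnt proteins and is itself a beta-catenin target, was lower in 60% tumors, with a log2 fold change of −1.20 (SE 0.28, adjusted p = 0.0417, edgeR) against control and −1.04 (SE 0.24, adjusted p = 0.0563) against 40% tumors. Its level was 0.889 ± 0.260 CPM (n = 7) in 60%, 1.81 ± 0.712 (n = 7) in 40% and 2.03 ± 0.4005 CPM (n = 4) in control tumors. The first of these calls was lost without control tumor 001 or 003, at an adjusted p of 0.147 and 0.201. The second was lost without 60% tumor 1, 2, 4 or 7 or 40% tumor 1 or 6, at adjusted p from 0.102 to 0.126. Of the 9 beta-catenin targets tested in tumors, Notum was the only 1 called in these comparisons. Their median log2 fold change was −0.06 in 60% against control tumors (2 higher, 7 lower). Against 40% tumors the median was −0.10 (3 higher, 6 lower), beside −0.00 over all genes in both.

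Among Frizzled receptors in tumors, 1 was called. Fzd7, which takes part in both branches, was higher in 60% than in 40% tumors, at 18.3 ± 1.43 against 13.8 ± 2.15 CPM (n = 7 each), with no overlap between the groups and a log2 fold change of 0.40 (SE 0.10, adjusted p = 0.0625, edgeR). This call was lost without 60% tumor 2 or 3 or 40% tumor 1, at adjusted p from 0.111 to 0.123. Against control tumors its log2 fold change was 0.37 (SE 0.12, adjusted p = 0.133). The other 7 tested Frizzled genes were not called in any tumor comparison. Ptk7, a pseudokinase coreceptor of planar polarity signaling, was lower in 60% than in 40% tumors, at 111 ± 14.4 against 153 ± 29.4 CPM (n = 7 each), with a log2 fold change of −0.47 (SE 0.11, adjusted p = 0.0546), a call lost without 60% tumor 1, 2 or 4 or 40% tumor 1 or 6, at adjusted p from 0.109 to 0.116. Ryk, Lrp5, Lrp6, Adgra2 and Reck were not called in tumors, nor were any of the tested genes of ligand secretion (2), Dishevelled and planar polarity (15), the calcium branch (11) or the beta-catenin core (13).

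In cells, 0 of the 58 tested pathway genes were called by edgeR without the block, against 0.0387% of all genes. With the culture number as a block, 9 were called, 4 upward and 5 downward, or 15.5% beside 7.11% of all genes. Upward were Fzd1, a Frizzled receptor (log2 fold change 0.69, SE 0.19, adjusted p = 0.0889), Nfatc1, a transcription factor of the calcium branch (0.32, SE 0.09, adjusted p = 0.0856), Tcf7l1, a DNA-binding partner of beta-catenin (0.38, SE 0.09, adjusted p = 0.0535), and Bcl9l, a coactivator of beta-catenin (0.54, SE 0.12, adjusted p = 0.0506). Downward were Vangl2, a core planar polarity protein (−0.70, SE 0.11, adjusted p = 0.0176), Adgra2, a coreceptor for Wnt7 ligands (−0.32, SE 0.09, adjusted p = 0.0923), Gsk3b, a kinase that marks beta-catenin for breakdown (−0.23, SE 0.06, adjusted p = 0.0760), and the broadly regulated genes Myc (−0.61, SE 0.11, adjusted p = 0.0344) and Ccnd1 (−0.29, SE 0.07, adjusted p = 0.0686), all by edgeR. Vangl2 was at 6.14 ± 1.07 CPM in m.11,944 60% cells and 10.1 ± 1.18 CPM in control cells (n = 4 each). In tumors its log2 fold change was −0.17 (SE 0.18) for m.12,436 60% against control, with an adjusted p of 0.669.

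Cell type markers moved in part with the 60% tumors. Leukocyte markers summed to 401–659 CPM in 60% tumors, 363–464 CPM in 40% tumors and 356–477 CPM in control tumors, and 1 of 7 tested leukocyte genes was called, Itgam, an integrin of myeloid cells, upward by 0.38 (SE 0.08, adjusted p = 0.0261, edgeR) against control and 0.42 (SE 0.07, adjusted p = 0.00611) against 40% tumors. Against control the call of Itgam was lost without control tumor 001, at an adjusted p of 0.114. Over all genes, 2.31% and 1.81% were called in these comparisons. All 7 leukocyte genes tested were higher in 60% than in control tumors (median log2 fold change 0.61, beside −0.00 over all genes). Against 40% tumors 6 were higher and 1 lower (median 0.42), and in 40% against control tumors 4 were higher and 3 lower (median 0.02). Fibroblast markers summed to 11172–13801, 7568–12248 and 10075–11600 CPM, endothelial markers to 130–212, 144–247 and 167–248 CPM, and pericyte and smooth muscle markers to 99.4–166, 92.8–165 and 116–179 CPM in 60%, 40% and control tumors, and no gene of these lists was called. Skeletal muscle markers varied widely in every tumor group, with sums of 2.15–212, 36.8–183 and 2.16–134 CPM in the same order, and adipocyte and keratinocyte markers summed to at most 19.8 CPM in any tumor, again with no call. Most of the fibroblast sums was Col3a1, and of the 8 fibroblast genes 3 were higher and 5 lower in 60% against control tumors. Lum was at 543 ± 121 in 60% (n = 7) and 342 ± 94.2 CPM in control tumors (n = 4), and Fap at 15.1 ± 5.81 and 27.5 ± 9.28 CPM. The part of the cell types named above in the lower Wnt5a and Wnt5b of 60% tumors was not tested. The 7 melanocyte lineage markers summed to 19.7–26.2 CPM in 60%, 14.1–26.1 in 40% and 21.1–61.7 CPM in control tumors. Control tumors ranged from 0 to 24.5 CPM for Dct and from 0 to 8.93 CPM for Sox10, whereas edited tumors held no count of Dct and at most 0.132 CPM of Sox10, and both genes were below the filter on low counts. Of the 2 lineage markers tested, Mitf was not called, at a log2 fold change of 0.23 in 60% against control tumors (SE 0.14, adjusted p = 0.436, edgeR). Pmel was called downward in 60% against control tumors, by −2.21 (SE 0.51, adjusted p = 0.0456), and this rested on control tumor 003, without which it was −0.56 (adjusted p = 0.559).

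Within tumor groups, the members were compared by correlating log2 CPM (prior count 2) over 18 tumors after the mean of each group was taken away, a measure that the choice of genes did not use. The 10 pairs of members were tested by permuting tumors within groups (100000 permutations, two-sided), and no pair passed after adjustment over the 10 pairs. Wnt5a and Wnt7b had r = 0.58 and rho = 0.52 (permutation p = 0.0232 and 0.0387, adjusted p = 0.124 and 0.194), with r = 0.54 without the 2 tumors farthest from the median of Wnt5a. Wnt5a and Ror2 had r = 0.50 and rho = 0.51 (permutation p = 0.0364 and 0.0330, adjusted p = 0.124 and 0.194), and r = 0.64 without 2 tumors. Wnt5b and Ror1, both scarce, had r = 0.58 and rho = 0.44 (permutation p = 0.0372 and 0.109, adjusted p = 0.124 and 0.362), and r = 0.31 without 2 tumors. For Wnt5a and Wnt7b, r was 0.90 within the 4 control tumors, 0.39 within the 7 tumors at 40% and 0.56 within the 7 at 60%. In the same order, it was 0.97, 0.41 and 0.30 for Wnt5a and Ror2 and 0.46, 0.21 and 0.78 for Wnt5b and Ror1. Wnt5a and Wnt5b, which were both low in 60% tumors, had r = −0.05 and rho = −0.09 within groups (permutation p = 0.860 and 0.725, adjusted p = 0.860 and 0.806). For this pair r was 0.26 without 2 tumors, −0.34 within control tumors, 0.58 within 40% tumors and −0.20 within 60% tumors.

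Over the same 18 tumors, the genes whose group-centered levels were most like each member were taken as the 3 highest of about 12190 values of r, and such extremes are given without a test. For Wnt5a they were Itga2, an integrin subunit for collagen (r = 0.87), Trim66 (0.84) and Fam131b (0.81). For Wnt5b they were Plxdc2 (0.87), Fndc1 (0.83) and Clec4n, a lectin receptor of myeloid cells (0.82). For Wnt7b they were Yaf2 (0.88), Gng10, a G protein subunit (0.86), and Jph4 (0.85). For Ror1 they were Lrg1 (0.88), Creb3l1 (0.86) and Rnpep (0.86), and for Ror2 Kif14, a mitotic kinesin (0.82), Akr1c13 (0.80) and Mcf2l (0.79). The tumors share library size scaling and bulk makeup, which such values of r also carry.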

How the data were processed

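RNA from cultured cells and tumor fragments was sequenced by a service laboratory. Alignment by the authors was with STAR to GRCm39, and gene totals came from featureCounts; they deposited raw counts for 56748 genes in 47 columns. Of these, 26 were matched to samples (edited cultures by a heading of the study's source data, control cultures by the extent of their numbering) and 21 were not used. Symbols and positions came from GENCODE, which matched 56017 genes.

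Counts were analysed with edgeR 4.0.16 in R 4.3.3, with cells and tumors fitted separately, TMM scaling, the filterByExpr filter (12930 and 16213 genes), a robust quasi-likelihood test and Benjamini–Hochberg adjustment against 0.1. The 5 genes and all lists were chosen with earlier results of these data known. Named genes were the members, every listed gene called, and the 3 genes most like each member. Alternatives were limma-voom (limma 3.58.1), DESeq2 1.42.0, its size factors in edgeR, no filter or at least 10 counts in every sample, the 2 groups of a comparison alone, a block for the replicate number, an adjusted p under 0.05, cultures 1 and 2 or 3 and 4 alone, and each sample left out.

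Same-numbered cultures of both groups deviated together (r from 0.717 to 0.832 over 12930 genes, 4 pairs), although different numbers reached r = 0.810. The cell fit reported did not use the numbers, which the labels give. Only the fit with the culture number as a block took same-numbered cultures as pairs. Labels do not say whether cultures were started separately, so p-values may measure technical spread. Total counts were 16475735–36173502. On simulated data, 57% of genes changed by 1 on the log2 scale and 90.7% of those changed by 2 were called in cells (12930 genes), and 78% and 98% in 60% against control tumors (16213 genes), with 12.7% and 10.2% of calls false. Simulated libraries were drawn independently, without the shared difference between culture numbers, so the shares for cells may not hold for the real cultures. Some items are not reported here.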

Additional observations from a re-analysis of the deposited data

Results flagged for a closer look

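Of 24 sets of a gene and a group with any spread, 1 held a sample set apart from the rest of its group, and chance alone gives about 1 in 20. Ror1 was at 0.0331 CPM, a single count, in control culture 3 and at 0 in the other 3 control cultures. A single value above 0 among zeros is always set apart by this rule, so the rate of 1 in 20 does not apply to it.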

How the results depend on the processing

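Of 236 values recomputed under other settings, 207 kept their direction and side of the threshold or stayed within 1.5 times the count, as did 301 of 345 with 1 sample left out, and 1 of each changed sign. Both were Wnt5a in 40% against control tumors, −0.09 in the fit reported, 0.041 with the replicate number as a block and from −0.20 to 0.060 with a tumor left out (0.060 without control tumor 003), never called.

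In cells, Wnt5a (−1.33) and Wnt7b (−1.93) were called by DESeq2. They were also called with the replicate block (−1.36 and −1.90), as was Wnt5b (−1.65), among 919 of 12930 genes (7.11%). In cultures 1 and 2 alone Wnt5a, Wnt7b and Wnt5b were called (−1.21, −2.10 and −2.20). They were among 5482 genes called there, with 2 cultures a group. Calls over all genes in cells were 84 with DESeq2, 0 with at least 10 counts in every sample, 919 with the replicate block, 5482 in cultures 1 and 2, 0 in cultures 3 and 4, and 0 to 0 with a culture left out. Same-numbered tumors came from different mice (mean r −0.164, −0.003 and −0.016 in the 3 comparisons), and the block changed no member's call in tumors. Calls in 60% against control tumors were 150 at 0.05, 1051 with DESeq2, 178 with the block, 943 with only these groups, and 66 to 724 with a tumor left out (66 without control tumor 003, 125 without 001, 716 without 002 and 724 without 004, and 186, 239 and 207 without 60% tumors 1, 3 and 4). In 60% against 40% tumors they were 113 at 0.05, 740 with DESeq2, 178 without a filter, and 108 to 452 (108, 132, 125 and 139 without 60% tumors 1, 2, 4 and 7, and 137, 452 and 128 without 40% tumors 1, 4 and 6). In 40% against control tumors they were 5 with DESeq2 and 0 to 4 with a tumor left out (1 without control tumor 001, 4 without 004 and 1 without 40% tumor 7). The causes were not tested. Wnt5b and Ror1 were too low for the filter of at least 10 counts in every sample. Depth limits Wnt5b, with 3 to 57 counts, and Ror1, with 0 to 50.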
